A study of Mus musculus with 6 samples.

Results

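The integrated stress response and the unfolded protein response are described here through 33 genes, chosen by name as members of these pathways: genes that ATF4 is known to drive, and chaperones, sensors and other genes of the ER. They fall into an ATF4 arm of 20 genes and an endoplasmic reticulum (ER) arm of 13 genes. The deposited table lists 49585 gene identifiers. All 33 genes were found in it once and all 33 passed the filter on low counts, as did 13744 genes in all.

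The data are counts of poly(A) RNA from mouse bone marrow leukaemia cells labelled MA9, a common abbreviation for leukaemias that carry the MLL-AF9 fusion. The Gata2 f/f cells carried loxP-flanked alleles of Gata2, which encodes a zinc-finger transcription factor of blood progenitors, and the Gata2 KO cells were labelled as having lost them. Each genotype had 3 libraries, numbered 1 to 3. Cells of both genotypes had received 5 uM Nutlin for 18 h and had been grown with IL-3, IL-6 and SCF. Nutlin is a small molecule that keeps MDM2 from binding p53. The sample descriptions mark the KO samples with Cre, so an effect of Cre and one of the Gata2 deletion cannot be told apart. How Cre was delivered, and whether the 3 samples of a genotype came from separate leukaemias, is not given in the sources used here. Untreated cultures were not analysed here. The stress genes are therefore described only under Nutlin, and no value given measures what Nutlin did.

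In the integrated stress response, kinases that sense amino acid shortage, ER stress, viral RNA or haem shortage phosphorylate the translation factor eIF2. General protein synthesis drops while the ATF4 mRNA is translated better, and ATF4 then switches on genes that make, import and charge amino acids, together with the factors CHOP (Ddit3) and ATF3. The unfolded protein response has 3 sensors in the ER membrane: PERK, which feeds into eIF2, IRE1 (Ern1), which splices the Xbp1 mRNA, and ATF6, which is cut to release a transcription factor. Translation of ATF4, splicing of Xbp1 and cleavage of ATF6 are not visible in gene counts, which give RNA abundance only.

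Total counts per library ran from 17138687 to 26440960. A member gene had a median count of 2919 to 4681 in a library, and the lowest count of any member was 13 (Vldlr in KO 1). In the labelled check, the f/f libraries had 33.6, 22.3 and 18.4 CPM of Gata2, where CPM are counts scaled to a common library size with TMM, a correction for library composition. The KO libraries had 5.44, 43.3 and 4.33 CPM, in the order of their numbers. The library labelled Gata2 KO 2 had the highest Gata2 level of all 6, against its label, so results are also given without it. The 2 libraries numbered 3 stood apart from the rest in many genes, and are treated in a comparison of their own. Of 7 marker genes of MLL-fusion leukaemia, Hoxa9, Hoxa10, Meis1, Mef2c and Myb were at 42.9 CPM or more in every library. Pbx3 ranged from 10.3 to 69.6 CPM, lowest in KO 3, and Flt3 from 0.084 to 4.56 CPM.

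Per kilobase of merged exon, the ER arm held the most abundant RNAs. Merged exons join those of all annotated transcripts of a gene, so levels of different genes compare only roughly on this scale. Calr, the calcium-binding chaperone calreticulin, had a mean of 1057 CPM per kb over the 6 libraries. It was followed by Sdf2l1 at 381 and Hspa5 at 333 CPM per kb. The most abundant genes of the ATF4 arm were Atf4 at 129, Phgdh at 124 and Psat1 at 117 CPM per kb. Without the division by length, Psat1 stood above Atf4, at a mean of 497 against 304 CPM. Some of the genes read in many cell types as signs of an active stress response were near the bottom of the order. Others, such as Hspa5, were near the top. Chac1 was at 5.42, Trib3 at 4.75, Atf3 at 4.03 and Ddit3 at 3.83 CPM per kb, and Vldlr was the lowest at 0.308.

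**Figure D1:**
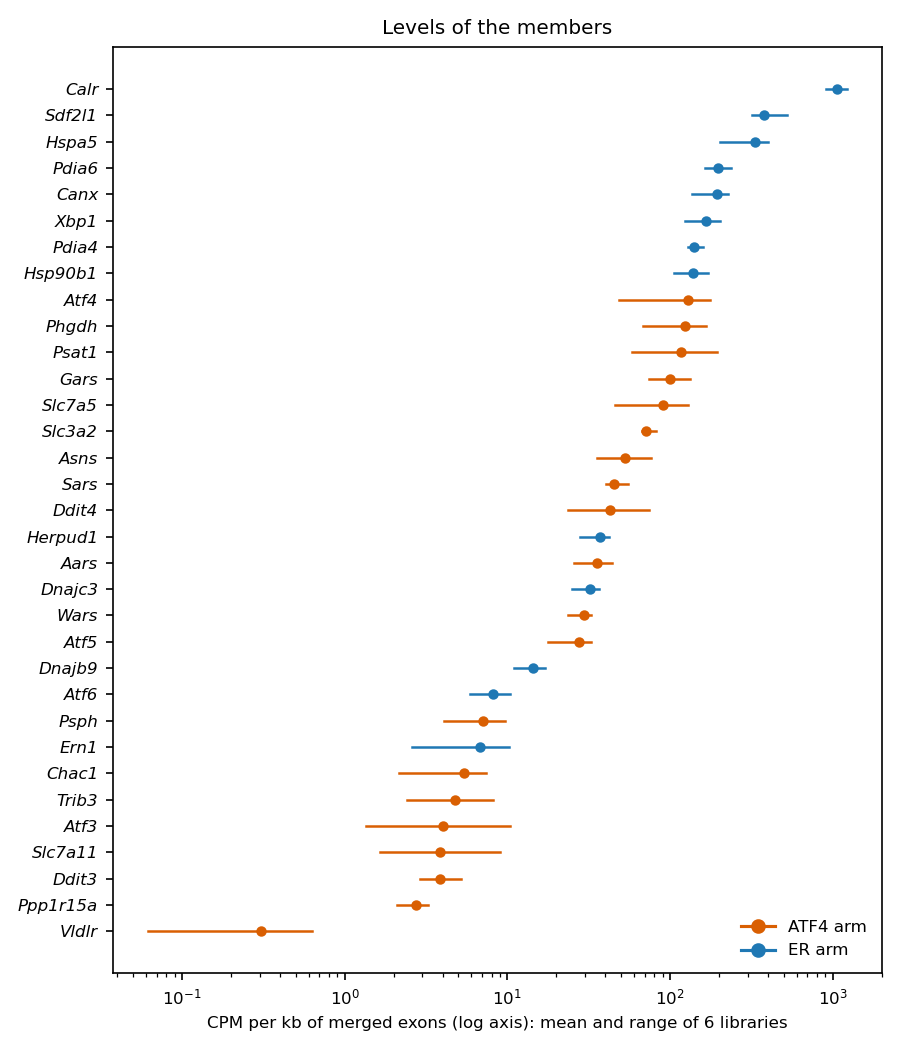
Mean level of each of the 33 genes over the 6 libraries, in CPM per kilobase of exon on a logarithmic axis, by arm. The points are means and the lines run from the lowest to the highest library. Calr stands highest at 1057 and Vldlr lowest at 0.308 CPM per kb.

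The promoters of the ATF4 arm were read for the amino acid response element, the composite site at which ATF4 binds with a C/EBP partner. It was searched on both strands as TGATGNAA in windows from 250 bases before to 50 bases after each RefSeq start site (GRCm38.p6). Of the 33 genes, 30 had such a window. The letters occurred in 8 of 18 ATF4-arm genes (Aars, Asns, Atf3, Chac1, Gars, Slc7a11, Trib3 and Vldlr) and in 1 of 12 ER-arm genes (Herpud1), against 3.97% of all promoter windows. The stretches of 5 of these genes are printed as examples of the element in both orientations, from genes of different roles. Capitals mark the match, which reads TTGCATCA where it lies on the other strand.
Asns (chr6:7693214-7693243, minus strand): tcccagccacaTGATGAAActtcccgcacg
Atf3 (chr1:191183416-191183463, minus strand): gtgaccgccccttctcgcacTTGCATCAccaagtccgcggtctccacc
Chac1 (chr2:119351029-119351076, plus strand): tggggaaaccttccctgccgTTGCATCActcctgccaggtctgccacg
Slc7a11 (chr3:50443633-50443699, minus strand): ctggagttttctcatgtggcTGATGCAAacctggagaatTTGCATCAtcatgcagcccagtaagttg
Vldlr (chr19:27216809-27216838, plus strand): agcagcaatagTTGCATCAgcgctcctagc
Slc7a11 held 2 matches, facing opposite ways, and the others 1 each. The cAMP response element TGACGTCA occurred in Ppp1r15a alone among the members, against 1.79% of all windows. A match is a string of letters and not a measured binding site. A gene was counted if any of its windows matched, while the percentages are shares of windows. The arm was chosen by name as genes that ATF4 is known to drive. Its count of matches is therefore a description and no independent support for that link.

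The promoters of the ER arm were read for the ER stress response element, the site of ATF6 with the CCAAT-binding factor NF-Y, given as CCAAT, 9 bases of any kind and CCACG. It occurred in 6 of 12 ER-arm genes (Calr, Canx, Dnajc3, Hsp90b1, Hspa5 and Pdia6) and in 0 of 18 ATF4-arm genes, against 0.119% of all windows. Element II, read as ATTGG, 1 base and CCACG, occurred in Herpud1 alone among the members, against 0.0365% of all windows. The XBP1 site read as TGACGTGG occurred in 0 member windows, against 0.676% of all. The stretches of 4 genes are shown because they hold the element in its forward, reverse, doubled and second forms, with the matches in capitals.
Hspa5 (chr2:34772020-34772048, plus strand): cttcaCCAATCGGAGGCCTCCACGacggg
Calr (chr8:84847055-84847113, minus strand): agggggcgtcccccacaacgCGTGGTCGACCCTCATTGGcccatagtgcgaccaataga
Hsp90b1 (chr10:86705513-86705676, minus strand): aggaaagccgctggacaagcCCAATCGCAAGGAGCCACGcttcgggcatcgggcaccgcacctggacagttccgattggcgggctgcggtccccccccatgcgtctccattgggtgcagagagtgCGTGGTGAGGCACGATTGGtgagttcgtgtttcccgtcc
Herpud1 (chr8:94386297-94386407, plus strand): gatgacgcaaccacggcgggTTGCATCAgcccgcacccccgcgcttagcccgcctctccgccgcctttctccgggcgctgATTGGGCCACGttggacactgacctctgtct
Herpud1 was the only member whose window held an element of both arms, the amino acid response element and element II. Here too genes are set beside a share of windows. The ER arm was chosen by name as genes of this response, so its matches describe the list and are no independent support.

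The first comparison asked whether the stress genes differed between Gata2 KO and Gata2 f/f cells under Nutlin. Between the genotypes, 0 of the 33 genes passed edgeR's quasi-likelihood test at a Benjamini-Hochberg adjusted p of 0.05, where 0 of 13744 genes passed (0%). The adjusted p was 1.00 for every member. At an unadjusted p under 0.05 there were 0 members and 171 genes in all (1.24%). The genotype difference, as log2 of KO over f/f, was positive in 9 and negative in 11 ATF4-arm genes with a median of -0.05, and positive in 4 and negative in 9 ER-arm genes with a median of -0.06. Over all tested genes the median was 0.02. The median size of the difference, whatever its sign, was 0.26 in the ATF4 arm, 0.10 in the ER arm and 0.24 over all tested genes. For 22 of the 33 genes, 12 of them in the ER arm, the 95% interval of the difference lay within 2-fold in either direction, a bound chosen after the values were seen. Differences of 2-fold or more were therefore outside the interval for those genes, while for the other 11 they were not. These intervals come from the fit of all 6 libraries, with the library labelled KO 2 counted as KO. The share of all tested genes with so narrow an interval was not counted. The 22 are thus not shown to be a trait of the members.

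**Figure D2:**
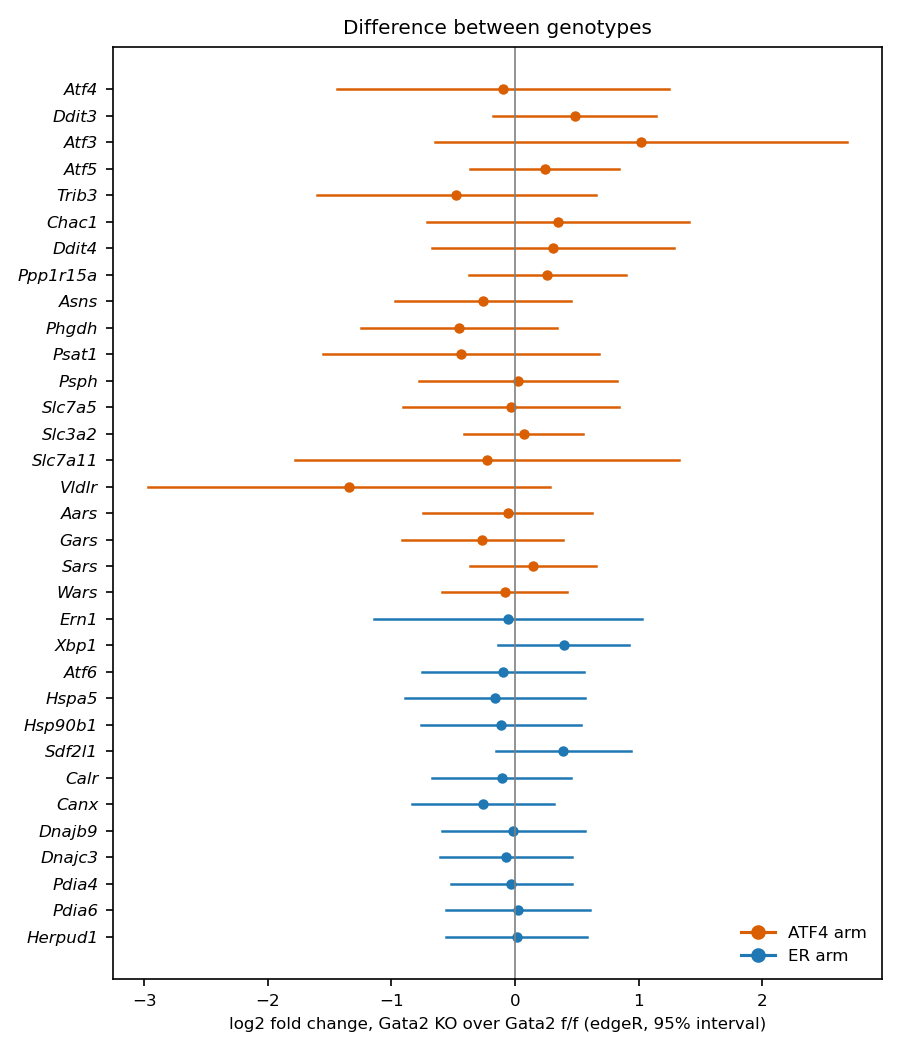
Log2 fold change of Gata2 KO over Gata2 f/f for each of the 33 genes, with its 95% interval from edgeR, by arm. Every interval crosses 0, and those of Vldlr (-1.35) and Atf3 (1.02) are among the widest.

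Among the transcription factors of the ATF4 arm, Atf4 itself (ENSMUSG00000042406.7, GRCm38 chr15:80255184-80257541) was at 417, 411 and 115 CPM in f/f and at 377, 371 and 132 CPM in KO, values being listed in the order of the sample numbers. Both libraries numbered 3 were low and the genotypes overlapped. The means were 314 ± 172 CPM in f/f and 293 ± 140 CPM in KO (SD, n = 3 each), a log2 difference of -0.10 ± 0.57 (SE).

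Ddit3, which encodes the death-promoting factor CHOP (ENSMUSG00000025408.15, chr10:127290774-127296288), was at 5.48, 5.98 and 4.98 CPM in f/f and at 6.83, 7.17 and 8.95 CPM in KO. All KO libraries lay above all f/f libraries, and the log2 difference was 0.48 ± 0.28, with an unadjusted p of 0.129 and an adjusted p of 1.00 in edgeR. Ddit3 had 96 to 213 counts a library. Its exons overlap those of Mars on the other strand, which had 24710 counts over the 6 libraries against 843 for Ddit3, and reads of the pair cannot be told apart where strand was not used in counting. KO above f/f in every library occurred for 3 of the 33 members (Ddit3, Xbp1 and Sdf2l1) and for 2.64% of all tested genes.

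Atf3, a stress-induced factor that p53 is also known to raise (ENSMUSG00000026628.13, chr1:191170296-191218039), was at 2.91, 3.70 and 10.6 CPM in f/f and at 4.68, 7.76 and 22.4 CPM in KO. Within each number the KO library was the higher, by 0.67, 1.05 and 1.08 on the log2 scale, but f/f 3 lay above KO 1 and KO 2. The log2 difference was 1.02 ± 0.71, the highest of the 33. With the sample number as a block it was 0.96 ± 0.23, and its adjusted p, at 0.397, was the smallest of any member in that fit and did not pass.
Atf5, a relative of Atf4, was at 56.7, 59.8 and 35.5 CPM in f/f and at 58.8, 55.3 and 65.4 CPM in KO, with f/f 3 the low library. Its exons overlap those of Nup62 on the other strand, which had 17885 counts against 7032 for Atf5.

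Of the 4 feedback and cell fate genes, Trib3, Chac1 and Ppp1r15a were at 17.4 CPM or less in every library, and Ddit4 was higher. Trib3, a pseudokinase that restrains ATF4 and CHOP, was at 12.3, 17.4 and 5.54 CPM in f/f and at 8.55, 11.7 and 5.13 CPM in KO. The KO library was the lower within every number, with a log2 difference of -0.47 ± 0.48. Chac1, which breaks down glutathione, was at 7.81, 12.1 and 3.54 CPM in f/f and at 11.1, 11.0 and 7.73 CPM in KO, with a log2 difference of 0.35 ± 0.45.
Ddit4, the inhibitor of mTORC1 known as REDD1, was at 41.6, 83 and 75.6 CPM in f/f and at 49.6, 130 and 68.7 CPM in KO. Here the libraries numbered 1 were the low ones and KO 2 the highest. Ppp1r15a, the GADD34 subunit that brings a phosphatase to eIF2, ranged only from 6.15 to 9.62 CPM. Its KO library was the higher within every number, and its log2 difference was 0.26 ± 0.27.

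Of the 4 genes of amino acid synthesis, 3 had a lower mean in KO, and their genotype ranges overlapped. None passed the test. Asns, asparagine synthetase, was at 165, 209 and 97.1 CPM in f/f and at 140, 137 and 116 CPM in KO, with a log2 difference of -0.26 ± 0.30. Phgdh, the entry enzyme of serine synthesis, was at 416, 414 and 240 CPM in f/f and at 284, 328 and 170 CPM in KO. The KO library was the lower within every number, and the log2 difference was -0.45 ± 0.34. Psat1, the next enzyme of that pathway, was at 594, 825 and 298 CPM in f/f and at 350, 667 and 250 CPM in KO, a log2 difference of -0.44 ± 0.48. It was lower in KO within every number as well, at -0.76, -0.31 and -0.25. With the sample number as a block in edgeR, Phgdh was at -0.46 ± 0.15 (unadjusted p = 0.0179, adjusted p = 0.417) and Psat1 at -0.44 ± 0.17 (unadjusted p = 0.0401, adjusted p = 0.453), so neither passed there. Psph, the last enzyme, ranged from 17.8 to 42.1 CPM with a log2 difference of 0.02 ± 0.34. It overlaps Cct6a on the other strand, which had 56214 counts against 3867 for Psph.

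Of the transporters, Slc7a11, the cystine importer xCT, was the most uneven. It was at 25.3, 23.1 and 126 CPM in f/f and at 47.4, 40.2 and 61.2 CPM in KO. The KO library was the higher within numbers 1 and 2, by 0.90 and 0.80 on the log2 scale, and the lower within number 3, at -1.04. The log2 difference of -0.23 ± 0.66 thus rested on f/f 3, and was 0.83 without both libraries numbered 3. Slc3a2, the shared heavy chain of Slc7a11 and Slc7a5, was at 258, 238 and 238 CPM in f/f and at 245, 236 and 288 CPM in KO, among the steadiest of the arm. Slc7a5, the large neutral amino acid carrier, ranged from 170 CPM in KO 3 to 479 CPM in KO 1.
Vldlr, a lipoprotein receptor gene known to respond to ER stress (ENSMUSG00000024924.14, chr19:27216484-27254231), had the smallest unadjusted p of the 33, at 0.0919 (adjusted p = 1.00 in edgeR). It was at 6.39, 5.13 and 1.83 CPM in f/f and at 0.621, 3.20 and 1.43 CPM in KO. The KO library was the lower within every number, at -3.17, -0.66 and -0.34 on the log2 scale. The groups overlapped, since f/f 3 lay below KO 2, and the log2 difference was -1.35 ± 0.70. Counts were 13 to 115 a library.

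The aminoacyl-tRNA synthetase genes Aars, Gars, Sars and Wars, which charge tRNA with alanine, glycine, serine and tryptophan, had log2 differences from -0.26 (Gars) to 0.14 (Sars). Within all 3 numbers, KO was the higher for 5 members (Ddit3, Atf3, Ppp1r15a, Xbp1 and Sdf2l1), against 20.7% of all tested genes. KO was the lower within all 3 for 9 members (Trib3, Phgdh, Psat1, Vldlr, Wars, Atf6, Hspa5, Calr and Canx), against 17.7% of all tested genes. No member lay below f/f in every KO library, against 2.78% of all tested genes.

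**Figure D3:**
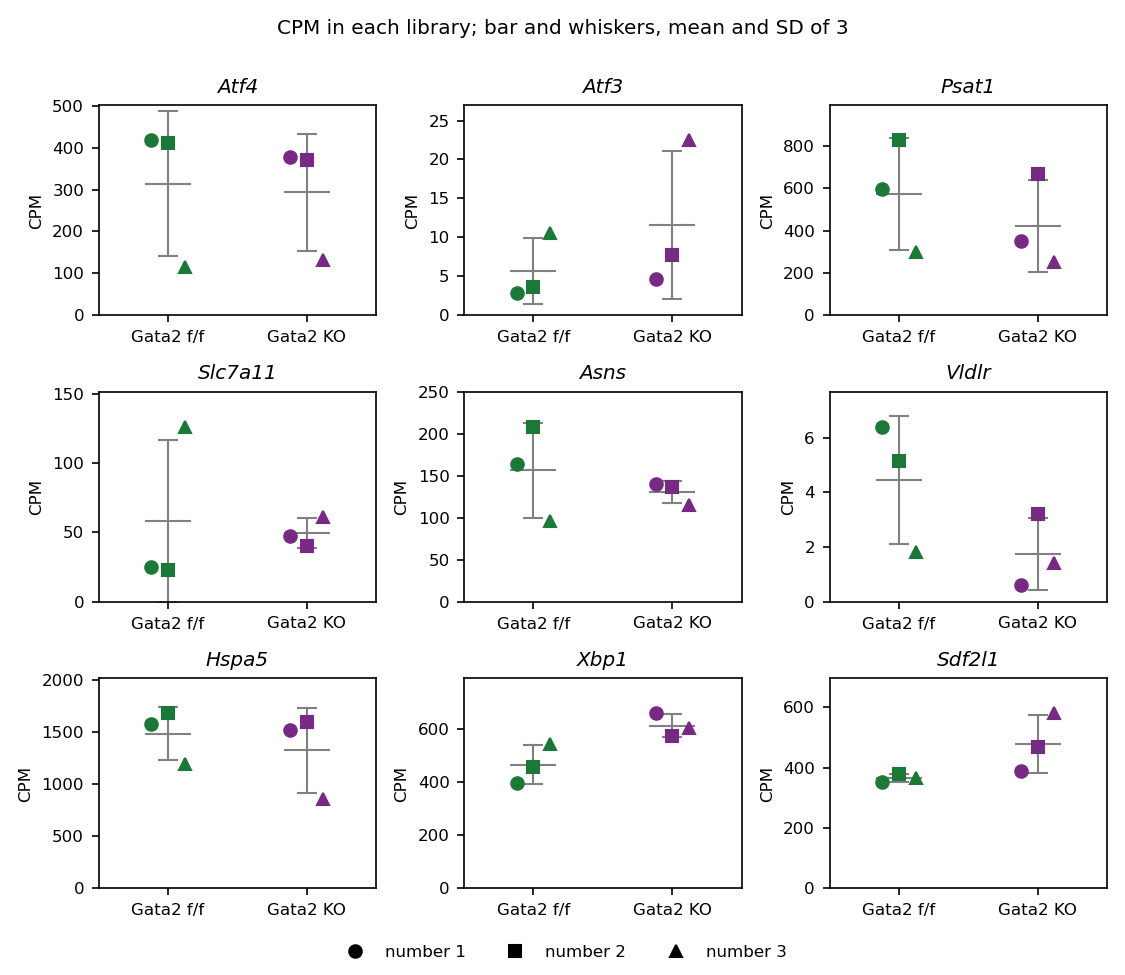
TMM-scaled CPM of 9 of the genes in each library, on linear axes from 0, with the mean and SD of 3 libraries as a bar and whiskers. Circles, squares and triangles are the libraries numbered 1, 2 and 3. Atf4 sits at 115 and 132 CPM in the triangles and at 371 to 417 CPM elsewhere, and Xbp1 and Sdf2l1 have their 3 KO libraries above their 3 f/f libraries.

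In the ER arm the sensor genes Ern1 and Atf6 had small mean differences between the genotypes, with wide spread in Ern1. The mean of Xbp1 was higher in KO. Xbp1, the factor that IRE1 activates (ENSMUSG00000020484.18, chr11:5520659-5525893), was at 400, 457 and 546 CPM in f/f and at 660, 577 and 606 CPM in KO. All KO libraries lay above all f/f libraries, and the log2 difference was 0.39 ± 0.23, with an adjusted p of 1.00 in edgeR. The gap within a number went from 0.72 in number 1 to 0.15 in number 3. The counts do not separate spliced from unspliced Xbp1. Ern1, the gene of IRE1, was at 69.0, 55.0 and 45.5 CPM in f/f and at 84.0, 57.5 and 21.3 CPM in KO. The lowest and the highest library were both KO. Its difference within a number was 0.28, 0.06 and -1.09. The mean log2 difference of -0.06 ± 0.46 thus came from values that went opposite ways. Its 95% interval, from -1.14 to 1.03, went beyond 2-fold in both directions. Atf6 ranged from 54.1 to 95.5 CPM, with a log2 difference of -0.10 ± 0.28.

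Of the chaperones, Hspa5 (BiP), the main ER chaperone and the usual read-out of the response, was at 1581, 1682 and 1201 CPM in f/f and at 1528, 1604 and 861 CPM in KO. Both libraries numbered 3 were below the other 4, and the log2 difference was -0.16 ± 0.31. Hsp90b1 (GRP94) was at 691, 617 and 425 CPM in f/f and at 619, 559 and 427 CPM in KO, the same layout. Sdf2l1, a partner of ER DnaJ proteins, was at 351, 380 and 364 CPM in f/f and at 389, 468 and 579 CPM in KO, so all KO libraries lay above all f/f libraries. Its log2 difference was 0.39 ± 0.23 with an adjusted p of 1.00 in edgeR. The Sdf2l1 gap within a number was largest in number 3 (0.67), where that of Xbp1 was smallest.
The lectin chaperones Calr and Canx, which hold glycoproteins during folding, were the lower in KO within every number. Calr ranged from 2620 to 3529 CPM. Canx was at 960, 1070 and 940 CPM in f/f and at 880, 958 and 642 CPM in KO, a log2 difference of -0.26 ± 0.25. Dnajb9, a co-chaperone induced through XBP1, was at 28.1, 38.2 and 43.5 CPM in f/f and at 32.2, 35.7 and 40.8 CPM in KO. Dnajc3, the co-chaperone P58IPK, ranged from 129 to 189 CPM. The disulfide isomerases Pdia4 and Pdia6 ranged from 312 to 383 and from 613 to 886 CPM. Herpud1, a membrane protein of ER-associated degradation, was at 87.1, 96.4 and 75 CPM in f/f and at 98.7, 97.3 and 65.1 CPM in KO. For Herpud1, whose promoter holds an element of both arms, the log2 difference was 0.01 ± 0.24.

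With the sample number as a block, edgeR called 0 members between the genotypes and 0 of all genes. DESeq2 with the block called 222 of 12678 genes (1.75%) and 0 members, and DESeq2 without it called 7 genes and 0 members. Leaving out the library labelled KO 2, 0 members were called, and the medians were -0.12 in the ATF4 arm and -0.10 in the ER arm. With the block and all 6 libraries the medians were 0.02 and -0.09. Without the library labelled KO 3 and without the block both were positive, at 0.04 and 0.05.

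Markers of late neutrophils were on average higher in KO. Their summed level was 266, 559 and 1837 CPM in f/f and 1737, 589 and 3159 CPM in KO, so the groups overlapped. Of 9 tested markers, 8 were positive with a median log2 difference of 1.57. At an unadjusted p under 0.05 in edgeR there were 4, against 1.24% of all tested genes. After adjustment edgeR called 0. DESeq2 with the block called 5, against 1.75% of all genes in that fit. The part of these markers in the genotype values of the stress genes was not tested.

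The second comparison asked how the members differed between the sample numbers, which the labels do not explain. The numbers had been taken to pair the samples from correlations in these same counts. Number 3 was set apart because earlier results of these data had shown its libraries apart. The p-values between numbers therefore describe these libraries and are no independent support for a difference. The test asks, in the fit with genotype and number, whether any number differed. The call was made for 1249 genes (9.09%), of which 911 were higher in number 3 (6.63%) and 338 lower (2.46%). It was made for 3 of the 33 members, a share near that of all tested genes. In number 3, Atf4 fell by 1.67 on the log2 scale against the mean of numbers 1 and 2 (adjusted p = 0.0123 in edgeR). Psat1 fell by 1.09 (adjusted p = 0.0263), and Atf3 rose by 1.79 (adjusted p = 0.0181). The call of Psat1 was lost without the library labelled KO 2 (adjusted p = 0.0776) and that of Atf3 without KO 3 (adjusted p = 0.0698).

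Trib3 at -1.18 (adjusted p = 0.0531), Phgdh at -0.82 (adjusted p = 0.0533) and Slc7a11 at 1.54 (adjusted p = 0.109) did not pass in edgeR. DESeq2's likelihood ratio test called 2870 of the 13744 genes and 8 of the 33 members, adding Trib3, Phgdh, Ddit4, Slc7a11 and Ern1. Without f/f 3 or without KO 3, number 3 had no replicate, so counts of calls from those fits are not read as a result about the members. Atf3 was thus at its highest where Atf4 was at its lowest. In number 3 Atf3 had 10.6 CPM in f/f and 22.4 CPM in KO beside 115 and 132 CPM of Atf4.

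Both libraries numbered 3 lay below the other 4 for 16 of the 33 genes, against 20.4% of all tested genes. In the ATF4 arm these were Atf4, Trib3, Chac1, Asns, Phgdh, Psat1, Slc7a5, Aars, Gars and Wars, and in the ER arm Ern1, Atf6, Hspa5, Hsp90b1, Dnajc3 and Herpud1. They lay above the other 4 for 3 genes (Atf3, Slc7a11 and Dnajb9), against 21.1% of all tested genes. The median difference of number 3 from numbers 1 and 2 was -0.54 in the ATF4 arm and -0.31 in the ER arm, beside 0.00 over all tested genes. Of the genes with the amino acid response element in the window, Asns, Aars, Chac1, Gars, Trib3 and Herpud1 were low in both libraries numbered 3. Atf3 and Slc7a11 were high in both, and Vldlr was neither. Low in both without the element were Atf4, Phgdh, Psat1, Ern1, Hspa5, Hsp90b1 and Dnajc3. Slc7a5, Wars and Atf6, also low in both, had no window. A link of the element with the sample number was not tested.

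**Figure D4:**
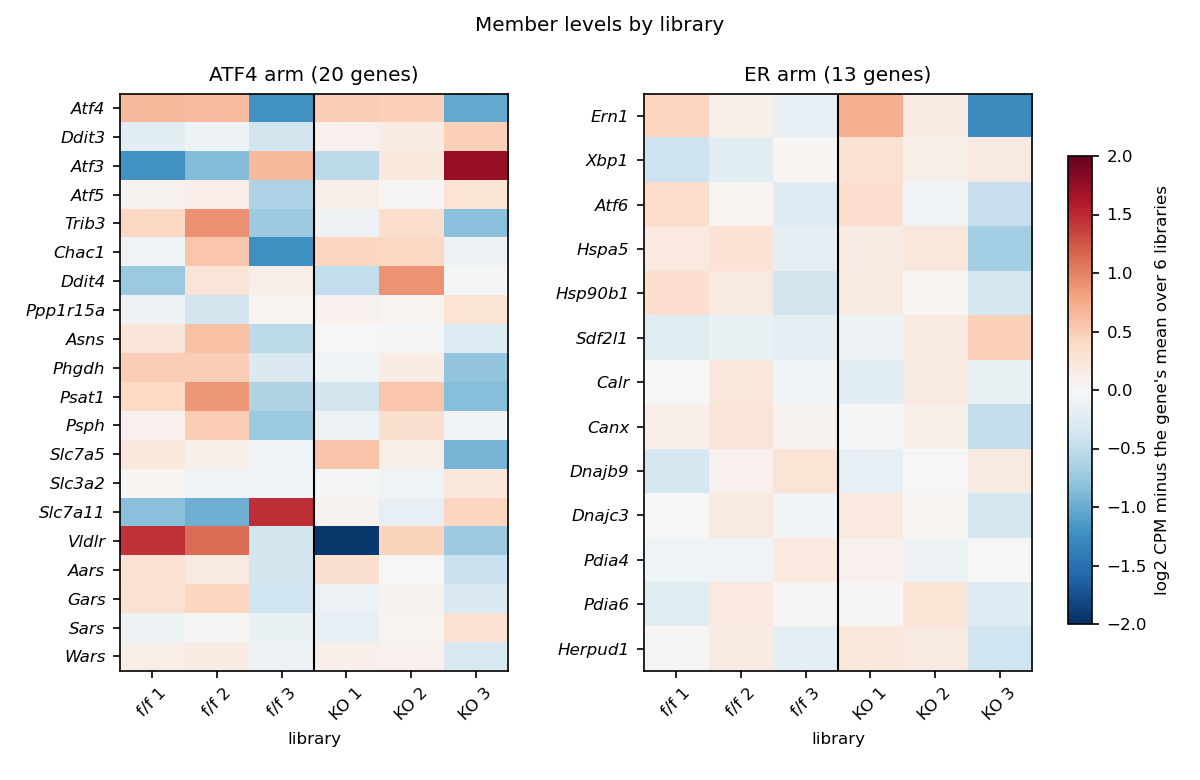
Log2 CPM of each of the 33 genes in each library minus the gene's mean over the 6 libraries, grouped by role. The columns of f/f 3 and KO 3 are mostly low in the amino acid and tRNA rows, where Psat1 and Phgdh lie, and high in the row of Atf3.

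**Figure D5:**
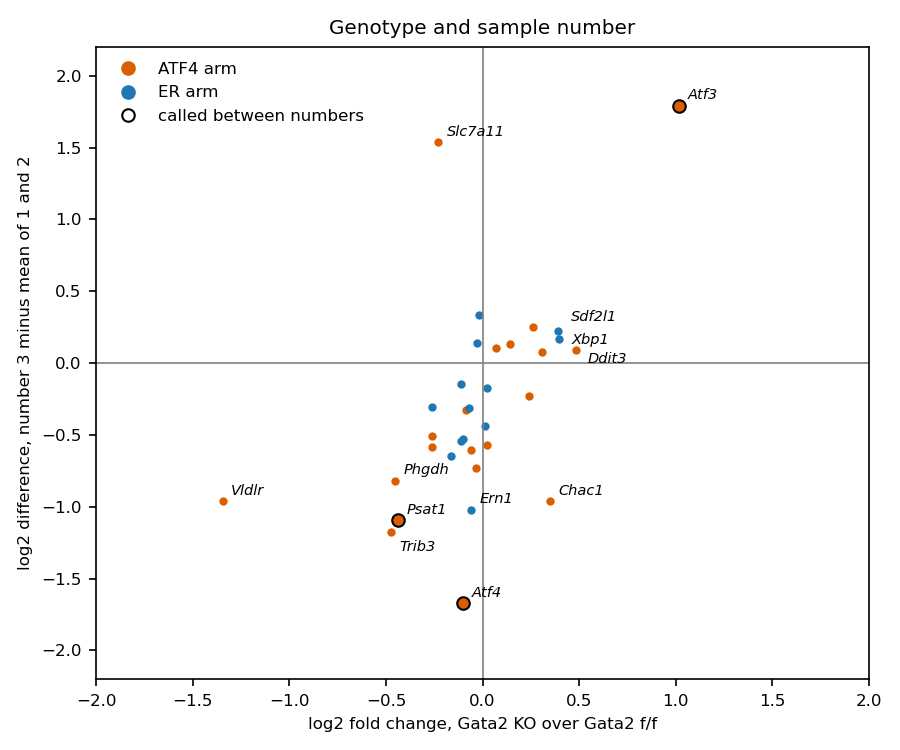
Each gene's log2 difference of number 3 from the mean of numbers 1 and 2 (vertical) against its log2 fold change of Gata2 KO over Gata2 f/f (horizontal), with the 3 genes called between numbers outlined. Atf4 lies lowest at -1.67 and Atf3 highest at 1.79, while 31 of the 33 genes lie between -0.5 and 0.5 on the horizontal axis.

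The libraries numbered 3 also differed in markers of cell state and of other cells. The monocyte and macrophage list summed to 2563 CPM in f/f 3 and 2926 CPM in KO 3, against 793 to 1212 CPM in the other 4. Of its genes, 10 of 10 lay above the other 4 libraries in both, against 21.1% of all tested genes. The late neutrophil list summed to 1837 CPM in f/f 3 and 3159 CPM in KO 3, with KO 1 at 1737 CPM and the other 3 libraries at 266 to 589 CPM. In the MLL-fusion leukaemia list, 7 of 7 genes were lower in number 3. Of these, 4 lay below the other 4 libraries in both libraries numbered 3, against 20.4% of all tested genes. That list summed to 680 and 603 CPM in f/f 3 and KO 3, against 784 to 945 CPM in the other 4. Its gene Myb, a factor of blood progenitors, fell by 1.26 in number 3 (adjusted p = 0.0266 in edgeR). Of the bone marrow stroma list, 6 of 8 genes lay above the other 4 libraries in both libraries numbered 3, against 21.1% of all tested genes. Its sum was 130 to 216 CPM throughout, but most of that was Pecam1 at 116 to 195 CPM. Pecam1 differed by -0.27 in number 3, so the sum hides the rise of the other genes. The p53 target Cdkn1a was at 758 and 979 CPM in f/f 3 and KO 3, against 228 to 404 CPM in the other 4. The part of these in the differences of the stress genes was not tested, and in bulk RNA fewer cells of a type and less RNA per cell cannot be told apart. Plasma cells, whose secretory load keeps the unfolded protein response on, had Jchain, Mzb1, Igkc and Tnfrsf17 at most at 0.63 CPM in any library. The whole list of 9 genes summed to 30.4 to 119 CPM, mostly from Sdc1 and Ighm. Sdc1 was at 76.8 and 69.2 CPM in f/f 3 and KO 3 and at 6.73 to 35.8 CPM in the other 4. The B cell and T cell lists summed to at most 6.39 and 2.98 CPM.

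The rest of the pathways was read from 4 further lists, in which edgeR called 0 genes between the genotypes. Of the eIF2 kinases, eIF2B subunits and phosphatase genes, 4 of 13 were positive and 9 negative, with a median of -0.10. The 4 of smallest p were Eif2b2 at 0.65 ± 0.42, Eif2b1, Impact and Eif2b3. Between numbers 0 of 13 were called, against 9.09% of all tested genes. Eif2b2, a subunit of the exchange factor that phosphorylated eIF2 blocks, was at 112, 114 and 176 CPM in f/f and at 133, 144 and 355 CPM in KO, so number 3 was high in both genotypes.

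Of 23 further ATF4 targets, Fgf21 had no counts and 22 were tested, 7 positive and 15 negative with a median of -0.21. Between numbers 3 of 22 were called, against 9.09% of all tested genes. In number 3, Mthfd2, a mitochondrial folate enzyme, fell by 1.27 on the log2 scale (adjusted p = 0.0195 in edgeR), and Slc1a4, a neutral amino acid carrier, fell by 1.94 (adjusted p = 0.0333). Mthfd2 was at 136, 166 and 63.4 CPM in f/f and at 123.4, 136 and 53.0 CPM in KO. Slc1a4 was at 14.03, 11.1 and 3.62 CPM in f/f and at 6.83, 9.82 and 1.93 CPM in KO. Both genes were lowest in the libraries numbered 3. Gdf15, a secreted stress hormone that is a target of p53 as well as of the stress response, rose by 4.0 (adjusted p = 0.0158). Gdf15 was at 0.285, 0.401 and 11.4 CPM in f/f and at 1.62, 1.36 and 12.6 CPM in KO, so both libraries numbered 3 were far above the rest. Chosen after their values were seen, Cth, Cebpg, Pycr1 and Got1 had every KO library below every f/f library, 4 of 22 against the 2.78% of all tested genes. Cth, which makes cysteine from cystathionine, was at 4.56, 5.40 and 3.15 CPM in f/f and at 2.53, 1.90 and 1.72 CPM in KO. It had a log2 difference of -1.09 ± 0.38 with an unadjusted p of 0.022 and an adjusted p of 1.00 in edgeR.

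Of 16 other cytosolic tRNA synthetase genes, 3 were positive and 13 negative between the genotypes, with a median of -0.18. Between numbers, 15 of 16 were lower in number 3 with a median of -0.64, and 12 of 16 lay below the other 4 libraries in both libraries numbered 3, against 20.4% of all tested genes. Called were 3 of 16, against 9.09% of all tested genes. They were Lars, which fell by 1.18 (adjusted p = 0.0241 in edgeR), Yars, which fell by 0.99 (adjusted p = 0.0365), and Eprs, which fell by 1.00 (adjusted p = 0.0292). Of 35 other genes of ER folding and degradation, 22 were positive and 13 negative between the genotypes with a median of 0.02. Between numbers their median was 0.00, and 1 of 35 was called, against 9.09% of all tested genes. Derl2, a channel component of ER-associated degradation, rose in number 3 by 1.13 (adjusted p = 0.0364 in edgeR).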

How the data were processed

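Poly(A) libraries were made with a NEBNext Ultra II kit and read as 90 bp pairs, per the labels' protocols. The authors deposited whole-number counts per gene, not normalised, in 1 table with 1 column per sample. Per the submitters' processing notes, the build was mm10 and the tools included HTSeq, kallisto and DESeq2. The counter, annotation and use of strand are not given in any source used here. Symbols, exon lengths and coordinates came from GENCODE M21 (GRCm38, the assembly of mm10), with 43749 of 49585 identifiers matched exactly and 49326 without their version. No column was left unused, and no 2 libraries were alike: the smallest chi-square per degree of freedom between any pair was 25.6. That pair was f/f 1 and the library labelled KO 2, which crosses the genotypes. In the planned list of genes that carry ribosomal RNA reads, they held 1.41% and 1.02% of counts, against 0.16% to 0.25% in the rest.

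Groups and numbers came from the titles. Whether replicates are separate cultures is not stated beyond their being called independent, so a p-value measures only the spread among these samples, which may be technical. Genes were kept by filterByExpr (minimum count 10), which left 13744 genes with 99.9% of counts. The genotypes were compared with the quasi-likelihood test of edgeR (edgeR 4.0.16, R 4.3.3, TMM, robust, no block), with Benjamini-Hochberg adjustment over all 13744 genes and a threshold of 0.05. Sample numbers were tested by the F test of the number terms in the fit with genotype. Deviations from group means correlated at 0.29, 0.55 and 0.65 between libraries of the same number, all over 0.1, so numbers were taken to pair the samples by rule. Unlike numbers reached 0.46 (f/f 1 with KO 2), above the 0.29 of f/f 1 with KO 1. The rule therefore does not settle how numbers 1 and 2 pair. Differences within a number rest on pairs that the labels do not give. The block lowered the biological coefficient of variation from 0.426 to 0.256 and the residual degrees of freedom from 4 to 2.

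The 33 members and all lists were chosen with earlier results of these data known. All members are named. Values in every library are given for the main members of most roles, members called and the 8 members of smallest genotype p, and ranges or differences for the rest. Of the other lists, genes called are named, or else the 4 of smallest p. Differences within a number used a prior of 0.1 CPM. DESeq2 1.42.0 was an alternative, with no filter, a mean CPM of at least 1, other scalings, the block, leaving out each library, and leaving out genes that carry ribosomal RNA reads. The fits were tried on simulated data with less spread than the real counts, which cannot show how well they perform on these libraries. Reads carry no molecular identifiers.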

Additional observations from a re-analysis of the deposited data

How the results depend on the processing

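Between the genotypes 0 members were called in any setting, and the smallest adjusted p of a member was 0.130. The count of genes called was 0 in edgeR without the block and with the replicate block, 7 in DESeq2, 222 in DESeq2 with the replicate block and 54 without the library labelled KO 2 with the block. The block changed no member's call. Its numbers pair the samples by the correlation of their deviations alone. Between numbers, no filter on low counts gave 2348 genes and 6 members. DESeq2's likelihood ratio test gave 2870 of the 13744 genes and 8 of the 33 members. Leaving out 1 library gave 757 to 3460 genes and 3 to 9 members, with 1 residual degree of freedom. The genes tested without a filter or without 1 library are not counted here. Those counts of members thus stand without a share of all genes and are no result about the members. The cause of these differences was not tested.

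The genotype sign of 21 members turned when 1 library was left out, and that of 13 in other settings. Herpud1 was at -0.0066 with DESeq2 size factors and in DESeq2, at -0.044 without a filter, at -0.0039 with the replicate block, at -0.023 in DESeq2 with the block, at -0.020 without the 4 genes of most ribosomal RNA reads (chosen after seeing the data) and at -0.016 without the library labelled KO 2 with the block. Pdia6 was at -0.034 without a filter, -0.00048 in DESeq2 with the block, -0.010 without the ribosomal RNA genes and -0.013 without KO 2 with the block. Psph was at -0.036 without a filter and -0.0052 without the ribosomal RNA genes. Slc7a11 was at 0.23 with the block and 0.22 in DESeq2 with the block, and Dnajb9 at 0.00015 with the block. Without KO 2 with the block, Atf4 was at 0.019, Asns at 0.0095 and Dnajb9 at 0.047. Without both libraries numbered 3, Atf5 was at -0.064, Psph at -0.23, Slc7a5 at 0.17, Slc3a2 at -0.075, Slc7a11 at 0.83, Sars at -0.043, Ern1 at 0.16 and Pdia4 at 0.034.

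Over the fits without 1 library the genotype difference ran from -0.54 to 0.23 for Atf4, -0.29 to 0.33 for Psph, -0.28 to 0.093 for Aars, -0.53 to 0.30 for Ern1, -0.33 to 0.051 for Atf6, -0.13 to 0.13 for Pdia6 and -0.12 to 0.16 for Herpud1. It ran from -0.55 to 0.0013 for Asns, -0.22 to 0.086 for Dnajb9, -0.21 to 0.047 for Dnajc3, -0.00011 to 0.38 for Atf5, -0.048 to 0.81 for Chac1, -0.62 to 1.00 for Slc7a11 and -0.13 to 0.027 for Pdia4. It ran from -0.18 to 0.55 for Ddit4, -0.40 to 0.26 for Slc7a5, -0.045 to 0.12 for Slc3a2, -0.00033 to 0.23 for Sars, -0.20 to 0.016 for Wars, -0.34 to 0.051 for Hspa5 and -0.33 to 0.0055 for Hsp90b1. The number 3 difference turned sign for 8 members, running from -0.20 to 0.35 for Ddit4, -0.73 to 0.22 for Atf5, -0.0047 to 0.34 for Xbp1, -0.21 to 0.38 for Ddit3, -0.072 to 0.28 for Slc3a2, -0.11 to 0.37 for Sars, -0.020 to 0.46 for Sdf2l1 and -0.39 to 0.037 for Pdia6. Depth limits Vldlr most, with 13 to 115 counts a library. Gm42418 and AY036118, in the planned list of ribosomal RNA genes, had 0 counts.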
